A study of Mus musculus with 12 samples.

Results

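The genes described here are 10 imprinted genes of distal mouse chromosome 7, namely H19 and Igf2 of the H19-Igf2 cluster and Ascl2, Cd81, Tssc4, Kcnq1, Kcnq1ot1, Cdkn1c, Slc22a18 and Phlda2 of the neighbouring Kcnq1 cluster. They were chosen by cluster membership with the results of these libraries already known, and the choice rested on the near loss of H19 in 2i medium and on the difference in Phlda2 between lines in 2i, so contrasts of these 2 genes that involve 2i are described below without a test. Of the 39017 genes in the table, 9 of the 10 could be found. Kcnq1ot1 could not be paired with an identifier in the sources used here, and no value is given for it. After a filter on low counts 8 of the 9 were tested, and the gene left out was Kcnq1.

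The study compared mouse embryonic stem cells (mESCs) of a wild-type male line, J1, with the line written 3B3-3l in the labels and called 3B3L here, in 12 poly(A) RNA-seq libraries. 3B3L cells are Dnmt3a-/- and Dnmt3b-/-, and express Dnmt3b and Dnmt3l-Flag (linked to a blasticidin resistance gene) from transgenes driven by the constitutive CAG promoter. These transgenes were meant to hold DNA methylation up in 2i medium, where it normally falls, and the question was how far the transcriptome then still follows the medium. Cultures of each line were kept in serum or in 2i, both with LIF, and 3 biological replicates were taken per combination of line and medium. 2i is a serum-free medium with the MEK inhibitor PD0325901 and the GSK3 inhibitor CHIR99021. J1 cells in serum grew on inactivated feeder cells, which were depleted before collection, while 3B3L cells grew on gelatin. Each genotype was represented by 1 line, so that the transgenes, the history of the line and, in serum, the culture surface cannot be told apart. J1 cells were on feeders in serum culture only, so medium and feeder culture cannot be told apart in J1. The same holds for the difference of the 2i effects between lines.

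Imprinted genes are transcribed mainly from the allele inherited from 1 parent, and DNA methylation laid down in the germline marks which. In the H19-Igf2 cluster a control region methylated on the paternal allele binds CTCF on the maternal allele, so that enhancers shared by both genes act on H19, a maternally expressed long non-coding RNA, rather than on Igf2, a paternally expressed growth factor. In the Kcnq1 cluster the control region lies at the start of Kcnq1ot1, a long non-coding RNA read antisense to Kcnq1 from the paternal allele, and the protein-coding genes around it are expressed mainly from the maternal allele, a bias that several of them show only in the placenta. Total RNA levels were measured here without regard to allele, so that neither imprinting nor its loss was measured.

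Libraries held 37050652 to 44515395 estimated reads. The 3 replicates of a group were separate samples, and the closest pair still differed by a chi-square of 3.91 per degree of freedom. The pair that differed most was replicates 2 and 3 of J1 in 2i (24.1, against 3.91 to 16.9 for all other pairs), and J1 2i replicate 3 is named below wherever a call rests on it. Markers of pluripotent cells were abundant in every group, with all 8 above the floor of 3 reads in each group and a summed level of 4649 to 6559 CPM (read counts scaled to TMM library sizes). Of these 8 markers 3 rose and 3 fell in 2i in J1, and 4 rose and 2 fell in 3B3L, where 66.1% and 65.4% of all tested genes passed the test. Dnmt3a stood at 166.4 ± 0.785 CPM in J1 serum and 32.1 ± 2.5 in 3B3L serum (SD, n = 3), and at 41.5 ± 2.78 and 4.67 ± 0.585 CPM in 2i. Dnmt3b stood at 413 ± 12.2 CPM in J1 serum, 44.1 ± 3.12 in J1 2i, 890.8 ± 32 in 3B3L serum and 928.1 ± 12.7 in 3B3L 2i, where reads of the gene and the transgene were not separated.

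The promoter windows of the genes on which the results turn are shown with CG dinucleotides, the sites of DNA methylation, in capitals. They are from RefSeq on GRCm38.p6 (mm10), run from 250 bases before to 50 after an annotated start and are written 5′ to 3′ on the strand of the gene. For 7 of the 10 genes there was a window. Phlda2 (chr7:143502475-143502774, minus strand) is the gene with the line difference in 2i, Slc22a18 (chr7:143473539-143473838, plus strand) is the neighbour that rose in 2i, Ascl2 (chr7:142969215-142969514, minus strand) and Igf2 (chr7:142658755-142659054, minus strand, chosen as the richest in CG of 4 windows) are the genes whose 2i effects differed between lines, and Kcnq1ot1 (chr7:143296498-143296797, minus strand) marks the control region of its cluster.

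Phlda2: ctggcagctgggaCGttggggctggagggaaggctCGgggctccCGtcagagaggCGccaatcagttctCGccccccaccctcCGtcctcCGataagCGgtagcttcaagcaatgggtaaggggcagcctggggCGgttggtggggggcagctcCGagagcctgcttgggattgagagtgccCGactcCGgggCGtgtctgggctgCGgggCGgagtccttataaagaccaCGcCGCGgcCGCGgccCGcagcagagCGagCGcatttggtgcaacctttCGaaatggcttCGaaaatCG
Slc22a18: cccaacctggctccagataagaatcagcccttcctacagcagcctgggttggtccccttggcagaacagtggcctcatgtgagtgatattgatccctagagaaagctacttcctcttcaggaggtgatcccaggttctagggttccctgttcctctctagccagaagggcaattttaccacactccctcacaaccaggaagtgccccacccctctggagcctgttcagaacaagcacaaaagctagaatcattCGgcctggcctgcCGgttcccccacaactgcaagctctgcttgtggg
Ascl2: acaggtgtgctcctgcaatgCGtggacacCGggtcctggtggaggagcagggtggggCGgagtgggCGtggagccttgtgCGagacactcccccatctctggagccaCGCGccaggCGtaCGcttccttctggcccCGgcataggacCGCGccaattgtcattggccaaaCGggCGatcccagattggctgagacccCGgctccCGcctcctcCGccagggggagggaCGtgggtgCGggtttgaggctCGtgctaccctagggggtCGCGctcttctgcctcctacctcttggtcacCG
Igf2: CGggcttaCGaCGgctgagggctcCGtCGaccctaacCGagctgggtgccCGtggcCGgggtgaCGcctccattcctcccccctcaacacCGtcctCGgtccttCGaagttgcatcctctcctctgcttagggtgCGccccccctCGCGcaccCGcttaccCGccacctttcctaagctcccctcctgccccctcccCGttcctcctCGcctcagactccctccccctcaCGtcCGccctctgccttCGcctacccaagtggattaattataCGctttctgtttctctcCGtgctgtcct
Kcnq1ot1: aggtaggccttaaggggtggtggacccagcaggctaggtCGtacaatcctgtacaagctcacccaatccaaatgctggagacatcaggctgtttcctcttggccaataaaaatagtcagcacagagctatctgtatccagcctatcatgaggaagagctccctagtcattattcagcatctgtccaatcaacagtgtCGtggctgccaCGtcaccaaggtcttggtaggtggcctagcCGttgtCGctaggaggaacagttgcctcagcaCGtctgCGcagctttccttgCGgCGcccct

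The Phlda2 window held 26 CG, a number reached by 16.9% of the 32851 windows of this length, against a median of 7. Those of Ascl2, Cd81 and Tssc4 held 23 each (21.5% of windows). The 4 windows of Igf2 ranged from 2 to 24 (24 or more in 20% of windows), and Kcnq1ot1 held 9 (45.8%). Slc22a18 held 2, a number that 85.9% of windows reach. The CG-rich windows include those of genes that were lower in 2i (Phlda2, Ascl2 and the richest window of Igf2) and of genes that were not (Cd81, Tssc4). The 2i values of Phlda2 took part in the choice of the genes. No methylation was measured in these libraries, and a link between CG content and level was not tested.

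H19 is also the precursor of a microRNA. The mature RNAs of mmu-miR-675 lie in it at chr7:142577112-142577133 and chr7:142577078-142577099 (minus strand), and are shown with the seed, bases 2 to 8, in capitals, because H19 RNA is their precursor. The 2 arms have different seeds. Mature microRNAs were not measured in these libraries.

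mmu-miR-675-5p: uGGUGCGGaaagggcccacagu
mmu-miR-675-3p: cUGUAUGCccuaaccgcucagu

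H19 (ENSMUSG00000000031, chromosome 7, 142575530 to 142578146) was close to absent in 2i in both lines. In J1 serum the 3 libraries held 2789, 2737 and 2522 reads of H19, and in J1 2i they held 2, 5 and 3. In 3B3L serum they held 2696, 2964 and 2567 reads, and in 3B3L 2i 0, 2 and 0. Every serum library was far above every 2i library, and 5 of the 6 libraries in 2i were at or under the floor of 3 reads. The mean level was 66.98 ± 1.23 CPM in J1 serum and 69.1 ± 2.61 in 3B3L serum, against 0.0778 ± 0.0348 and 0.0155 ± 0.0268 in 2i (SD, n = 3). From summed reads, H19 was 860-fold lower in 2i in J1 (95% exact binomial counting interval 467 to 1793) and 4271-fold lower in 3B3L (1182 to 35270), the width of the latter interval reflecting 2 reads in all. These intervals, like the floor, cover counting error only, not the spread between libraries, and they are not a test.

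Between the lines H19 did not pass the test in serum (log2 fold change 0.05 ± 0.06 SE, edgeR adjusted p = 0.617), and the libraries of the lines overlapped. In 2i there were 10 reads in J1 and 2 in 3B3L, a ratio of 4.81 from summed reads that is a description only. The libraries of the lines overlapped there, and all but 1 of the 6 were at or under the floor.

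Igf2 (ENSMUSG00000048583, 142650768 to 142666816), 82.0 kb from H19 between gene midpoints, fell in 2i in both lines and had the largest line difference in serum of the 8 tested genes. J1 serum libraries held 780, 740 and 713 reads of Igf2 and J1 2i libraries 31, 33 and 21. The 3B3L libraries held 1691, 1730 and 1632 reads in serum and 32, 39 and 34 in 2i. In serum every 3B3L library was above every J1 library, and in 2i both lines were low. The level was 18.6 ± 0.742 CPM in J1 serum and 42.5 ± 1.46 in 3B3L serum, a log2 difference of 1.19 ± 0.06 (edgeR adjusted p = 4.12e-09). In 2i it was 0.659 ± 0.129 and 0.850 ± 0.071 CPM, a log2 difference of 0.36 ± 0.16 that did not pass the test (edgeR adjusted p = 0.15).

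On the log2 scale Igf2 changed in 2i by -4.81 ± 0.10 in J1 (edgeR adjusted p = 4.52e-15) and by -5.64 ± 0.10 in 3B3L (3.29e-16), that is, 28.0-fold and 49.8-fold lower. The 2i effect differed between the lines by -0.83 ± 0.18 (edgeR adjusted p = 0.00207). These sizes depended on transcript length. With effective transcript length as an offset the 2i effects were -4.01 ± 0.16 in J1 and -4.55 ± 0.15 in 3B3L, their difference of -0.54 ± 0.25 no longer passed (edgeR adjusted p = 0.124), and the line difference in 2i of 0.66 ± 0.23 did (0.0301).

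The share of Igf2 held by its transcripts moved in the same libraries. Igf2-203, the shortest of those with a large share, held 31.7 ± 7.68% of Igf2 TPM in J1 serum and 31.1 ± 6.17% in 3B3L serum, against 69.6 ± 5.12% and 72.1 ± 13.3% in 2i. Igf2-002 went the other way, from 20.6 ± 5.22% and 19.7 ± 2.38% in serum to 2.57 ± 2.36% and 2.08 ± 1.90% in 2i. In both cases the libraries in serum and 2i did not overlap in either line, and the lines did not differ in serum beyond their spread. Each of the comparisons between media had an exact permutation p of 0.1 (two-sided), the smallest that 3 libraries against 3 can give. The adjusted p of each was 0.521 over the 73 transcript comparisons made. In 2i the shares rest on 21 to 39 reads of Igf2 a library. As shares of reads rather than TPM, Igf2-203 held 8.85% and 8.55% in serum and 33.3% and 43.4% in 2i.

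**Figure D1:**
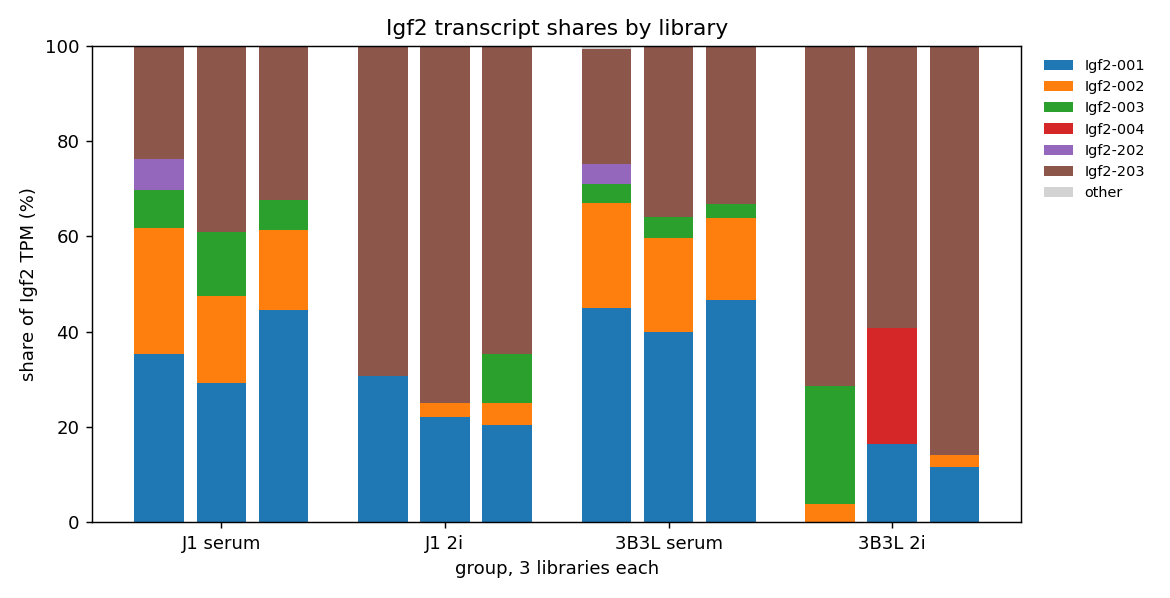
Share of Igf2 TPM (%, vertical axis) held by each transcript in the 12 libraries, grouped by line and medium, with 3 bars a group. Igf2-203 holds 23.7 to 39.1% in the serum libraries and 59.2 to 85.8% in the 2i libraries.

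With H19 level between lines and Igf2 higher in 3B3L, their ratio differed in serum. Reads per kilobase of effective length of Igf2 were 0.191, 0.213 and 0.211 of those of H19 in the J1 libraries and 0.437, 0.445 and 0.479 in the 3B3L libraries. The mean ratio was 0.205 ± 0.012 in J1 and 0.454 ± 0.0219 in 3B3L, a log2 difference of 1.15, with no overlap (exact two-sided permutation p = 0.1, the smallest possible, n = 3). In 2i H19 was too low for a ratio. Igf2as (written Igf2os in other sources), the antisense RNA of the Igf2 locus, was low and stood at 0.396 ± 0.151 CPM in J1 serum and 0.765 ± 0.00775 in 3B3L serum, a log2 difference of 0.96 ± 0.32 (edgeR adjusted p = 0.0256). Libraries were stranded and the quantification took strand into account.

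Cdkn1c (ENSMUSG00000037664, 143458339 to 143461059), which encodes the cell cycle inhibitor p57 and restrains growth, fell in 2i in both lines and was lower in 3B3L in both media. J1 libraries held 971, 1028 and 822 reads of Cdkn1c in serum and 71, 51 and 65 in 2i, and 3B3L libraries 530, 558 and 417 in serum and 25, 30 and 19 in 2i. All 4 groups were separate from each other, in the order J1 serum, 3B3L serum, J1 2i and 3B3L 2i. The log2 change in 2i was -4.00 ± 0.13 in J1 (edgeR adjusted p = 2.55e-13) and -4.39 ± 0.15 in 3B3L (5.66e-13), and the difference between these effects of -0.39 ± 0.23 did not pass (0.208). The level in 3B3L was lower than in J1 by a log2 change of -0.89 ± 0.10 (edgeR adjusted p = 4e-06) in serum and -1.28 ± 0.20 (9.46e-05) in 2i.

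The related inhibitors Cdkn1a and Cdkn1b were not lower in 2i. Cdkn1a, which encodes p21, rose in 2i by 1.83 ± 0.05 on the log2 scale in J1 (edgeR adjusted p = 1.04e-13), from 42.3 ± 2.13 to 150.3 ± 8.16 CPM, and from 42.8 ± 1.14 to 160.5 ± 2.72 CPM in 3B3L. Cdkn1b, which encodes p27, stood at 32.4 ± 0.882 CPM in J1 serum and 51.2 ± 2.4 in J1 2i, and at 32.8 ± 1.2 and 36.5 ± 2.95 CPM in 3B3L.

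Phlda2 (ENSMUSG00000010760, 143501545 to 143503145), which encodes a small pleckstrin homology domain protein that limits placental growth, was lower in 2i in both lines and had its lowest level in 3B3L 2i. Its reads were 2764, 2893 and 2347 in J1 serum, 1024, 854 and 908 in J1 2i, 1847, 1820 and 1609 in 3B3L serum and 107, 97 and 87 in 3B3L 2i. The 4 groups did not overlap. The level was 66.5 ± 3.09 CPM in J1 serum and 21.7 ± 1.91 in J1 2i, a log2 change of -1.62 ± 0.07, or 3.06-fold lower, and 44.4 ± 3.48 in 3B3L serum and 2.35 ± 0.189 in 3B3L 2i, a log2 change of -4.23 ± 0.10, or 18.8-fold lower. In 2i Phlda2 was 9.20-fold lower in 3B3L than in J1. These 2i values took part in the choice of the genes and are a description. In serum the lines differed by -0.58 ± 0.07 on the log2 scale (edgeR adjusted p = 9.65e-06). Of its relatives, Phlda1 fell in 2i to 0.979 ± 0.202 CPM from 4.99 ± 0.169 in J1, and to 1.58 ± 0.059 from 4.09 ± 0.523 in 3B3L. Its log2 fall was smaller in 3B3L than in J1 by 0.97 ± 0.20 (edgeR adjusted p = 0.00175). Phlda3 stood between 31.9 and 43.2 CPM in all 4 groups. It changed in 2i by -0.23 ± 0.08 in J1 (edgeR adjusted p = 0.0182) and 0.44 ± 0.08 in 3B3L (0.000153), a difference of 0.67 ± 0.11 (0.000302).

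Slc22a18 (ENSMUSG00000000154, 143473726 to 143499334), a gene of an organic cation transporter-like protein that lies between Cdkn1c and Phlda2, went the other way from both in 2i. J1 libraries held 141, 123 and 126 reads of Slc22a18 in serum and 260, 252 and 239 in 2i. The 3B3L libraries held 90, 84 and 69 reads in serum and 139, 113 and 104 in 2i. Within each line every 2i library was above every serum library in CPM. The log2 change in 2i was 0.85 ± 0.12 in J1 (edgeR adjusted p = 1.05e-05) and 0.50 ± 0.13 in 3B3L (0.00394), and their difference of -0.35 ± 0.18 did not pass (0.143). Slc22a18 was lower in 3B3L, by -0.67 ± 0.13 (edgeR adjusted p = 0.000917) on the log2 scale in serum and -1.02 ± 0.12 (4.63e-06) in 2i. Its neighbours on both sides were also lower in 3B3L in serum. In 2i Cdkn1c was too, while the 2i value of Phlda2 took part in the choice of the genes. The coding transcript Slc22a18-001 held 39.5 ± 3.95% of its TPM in 3B3L serum and 63.0 ± 7.26% in 3B3L 2i without overlap (exact permutation p = 0.1, adjusted p = 0.521). In J1 its share was 43.2 ± 32.6% in serum and 61.0 ± 16.1% in 2i, and the libraries overlapped (exact permutation p = 0.4, adjusted p = 0.973).

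Ascl2 (ENSMUSG00000009248, 142966822 to 142969264), which encodes a transcription factor needed for the trophoblast of the placenta, was the gene whose line difference changed sign with the medium. It had 164, 144 and 157 reads in J1 serum, 46, 46 and 64 in J1 2i, 327, 341 and 280 in 3B3L serum and 30, 36 and 29 in 3B3L 2i. In serum all 3B3L libraries were above all J1 libraries, and in 2i all were below. The level was 3.88 ± 0.393 CPM in J1 serum and 7.97 ± 0.682 in 3B3L serum (log2 difference 1.04 ± 0.13, edgeR adjusted p = 1.04e-05), and 1.22 ± 0.294 and 0.768 ± 0.059 CPM in 2i (-0.66 ± 0.19, 0.00974). The line difference in 2i rested in part on J1 2i replicate 3, without which it was -0.45 (edgeR adjusted p = 0.0702). Ascl2 changed in 2i by -1.67 ± 0.15 in J1 (edgeR adjusted p = 8.45e-08) and -3.37 ± 0.16 in 3B3L (1.95e-11), and these effects differed by -1.70 ± 0.23 (4.05e-05). Reads of Ascl2 went wholly to the transcript Ascl2-201 in some libraries and wholly to Ascl2-001 in others of the same group, so only the gene level is used.

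Cd81 (ENSMUSG00000037706, 143052750 to 143067930) and Tssc4 (ENSMUSG00000045752, 143068416 to 143071093), neighbours in the middle of the cluster, changed little. Cd81, a widely expressed tetraspanin of the cell surface, stood at 116.8 ± 4.49 CPM in J1 serum, 126.7 ± 4.12 in J1 2i, 139.3 ± 3.73 in 3B3L serum and 166.6 ± 3.40 in 3B3L 2i. It was higher in 3B3L by a log2 difference of 0.25 ± 0.05 (edgeR adjusted p = 0.000414) in serum and 0.39 ± 0.05 (4.14e-06) in 2i. The change in 2i was 0.26 ± 0.05 in 3B3L (edgeR adjusted p = 0.000114) and 0.12 ± 0.05 in J1 (0.0325), and the call in J1 was lost under 8 of 18 alternatives, among them leaving out J1 2i replicate 3 or J1 serum replicate 2 or 3 (adjusted p up to 0.185). The related tetraspanin Cd9 rose in 2i in both lines, reaching 439.5 ± 26.5 CPM from 155.7 ± 1.56 in J1 and 289.8 ± 16.6 from 138.8 ± 7.94 in 3B3L.

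Tssc4, which encodes a factor in spliceosome assembly, stood at 28.2 ± 0.96 CPM in J1 serum, 30.0 ± 3.47 in J1 2i, 23.8 ± 2.35 in 3B3L serum and 29.5 ± 0.533 in 3B3L 2i. It rose in 2i in 3B3L by 0.31 ± 0.08 on the log2 scale (edgeR adjusted p = 0.00285). In J1 the change of 0.09 ± 0.08 did not pass (edgeR adjusted p = 0.338), nor did the line difference in 2i of -0.02 ± 0.08 (0.835), and the libraries overlapped in both. The line difference in serum of -0.25 ± 0.08 (edgeR adjusted p = 0.0239) was lost without J1 serum replicate 1 or 2 or 3B3L serum replicate 2 or 3 (adjusted p up to 0.102). Of the reads of Tssc4, 63.1% belong to transcripts that could be named here.

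Kcnq1 (ENSMUSG00000009545, 143106877 to 143427050), a voltage-gated potassium channel best known in heart and inner ear, was barely detected. Its reads were 7, 6 and 5 in J1 serum, 15, 12 and 1 in J1 2i, 5, 5 and 4 in 3B3L serum and 0, 2 and 0 in 3B3L 2i. J1 2i replicate 3 stood apart from the other libraries of its group, and it overlapped with 3B3L 2i. Summed over libraries, 28 reads in J1 2i and 2 in 3B3L 2i gave a ratio of 13.5 (95% counting interval 3.40 to 117), and 18 and 14 in serum a ratio of 1.27 (0.598 to 2.76). Kcnq1 fell below the filter. With no filter its line difference in 2i was -3.52 ± 0.88 (edgeR adjusted p = 0.00113) and that in serum -0.36 ± 0.66 (0.792), at a level where a fitted fold change depends on the model.

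**Figure D2:**
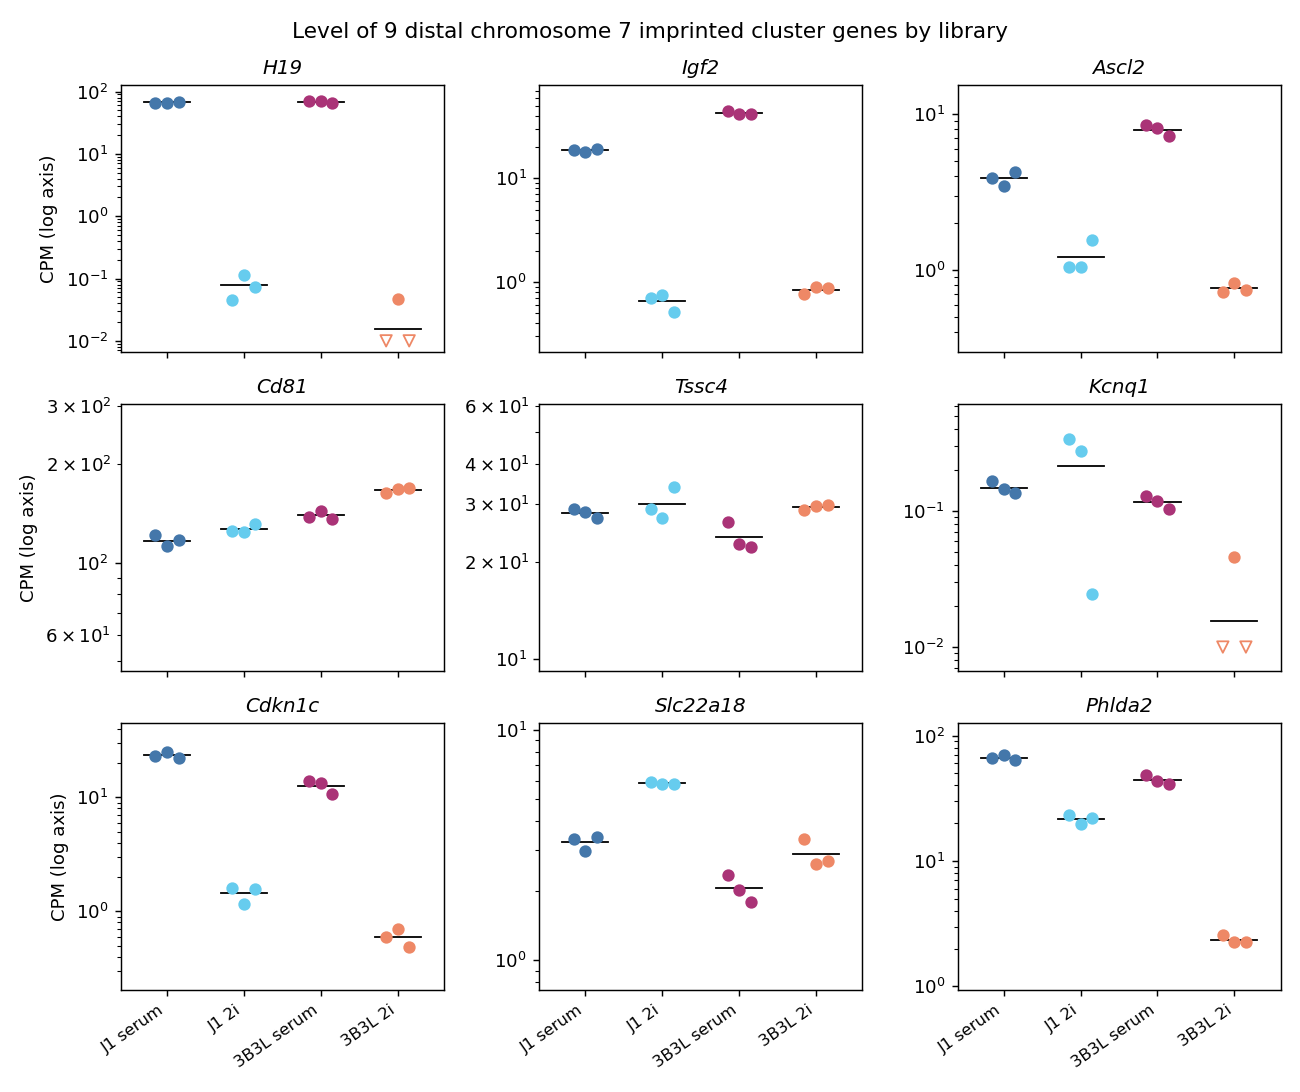
Level of each of the 9 measured genes in CPM (vertical axis, log scale that differs between panels) in the 12 libraries, with a point a library, a line at the mean of each group and open triangles at the lower edge for libraries with 0 reads. H19, Igf2, Ascl2, Cdkn1c and Phlda2 are lower in 2i in both lines, Slc22a18 is higher, and Kcnq1 ranges from 0 to 15 reads.

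Levels can be compared between genes only per length. In RPKM, here CPM divided by the effective length in kilobases, J1 serum had Phlda2 (112.7 ± 4.63) and Cd81 (99.9 ± 6.31) at the top, then H19 (31.6 ± 0.58), Tssc4 (24.0 ± 0.951), Cdkn1c (13.5 ± 0.724), Igf2 (6.48 ± 0.412), Slc22a18 (2.697 ± 0.122), Ascl2 (2.696 ± 0.272) and Kcnq1 (0.0521 ± 0.00575). Of the neighbours in this order, only Slc22a18 and Ascl2 overlapped between libraries. In 3B3L 2i the order was Cd81 (146.6 ± 7.40 RPKM), Tssc4 (25.9 ± 0.745), Phlda2 (3.96 ± 0.313), Slc22a18 (2.25 ± 0.481), Igf2 (0.651 ± 0.169), Ascl2 (0.532 ± 0.039), Cdkn1c (0.341 ± 0.0552), H19 (0.0234 ± 0.0404) and Kcnq1 (0.00538 ± 0.00931). Igf2 overlapped there with Ascl2, and H19 with Kcnq1.

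Calls were made at an edgeR p under 0.05 after Benjamini-Hochberg adjustment over the 17885 genes of the fit. In J1, 5 of the 6 tested genes other than H19 and Phlda2 were called between media, 2 higher and 3 lower in 2i. Of all genes 66.1% were called there, 33.2% higher and 32.9% lower. In 3B3L all 6 were called, 3 higher and 3 lower, against 65.4% of all genes (32.7% higher and 32.7% lower). With so many genes called, counts near these shares say little. The median log2 change was -0.79 in J1 and -1.56 in 3B3L over these 6 genes and 0.01 over all genes in both lines. In each line 3 of the 6, Igf2, Ascl2 and Cdkn1c, were called and lower by at least 2-fold, against 14.5% of all genes in J1 and 16.1% in 3B3L.

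In serum 7 of the 8 tested genes differed between the lines, 3 higher and 4 lower in 3B3L, against 38.7% of all genes (21.5% higher and 17.2% lower). The median was -0.10 over the 8 genes and 0.03 over all genes. In 2i, 4 of the 6 genes other than H19 and Phlda2 were called, 1 higher and 3 lower, against 45.9% of all genes (23.0% higher and 22.9% lower). The median was -0.34 against 0.01 over all genes. The 2i effect differed between lines for 2 of the same 6 genes, Igf2 and Ascl2, both lower in 3B3L, against 34.7% of all genes (16.3% higher and 18.3% lower). That count became 5 without J1 2i replicate 3, where Cd81 (0.17, edgeR adjusted p = 0.0466) and Tssc4 (0.32, 0.017) were called as well. Kcnq1 is also in that count, with a log2 difference of -3.68 ± 0.93. It passed the filter there only through the J1 2i libraries with 15 and 12 reads, so its call depended on the filter and is no support.

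**Figure D3:**
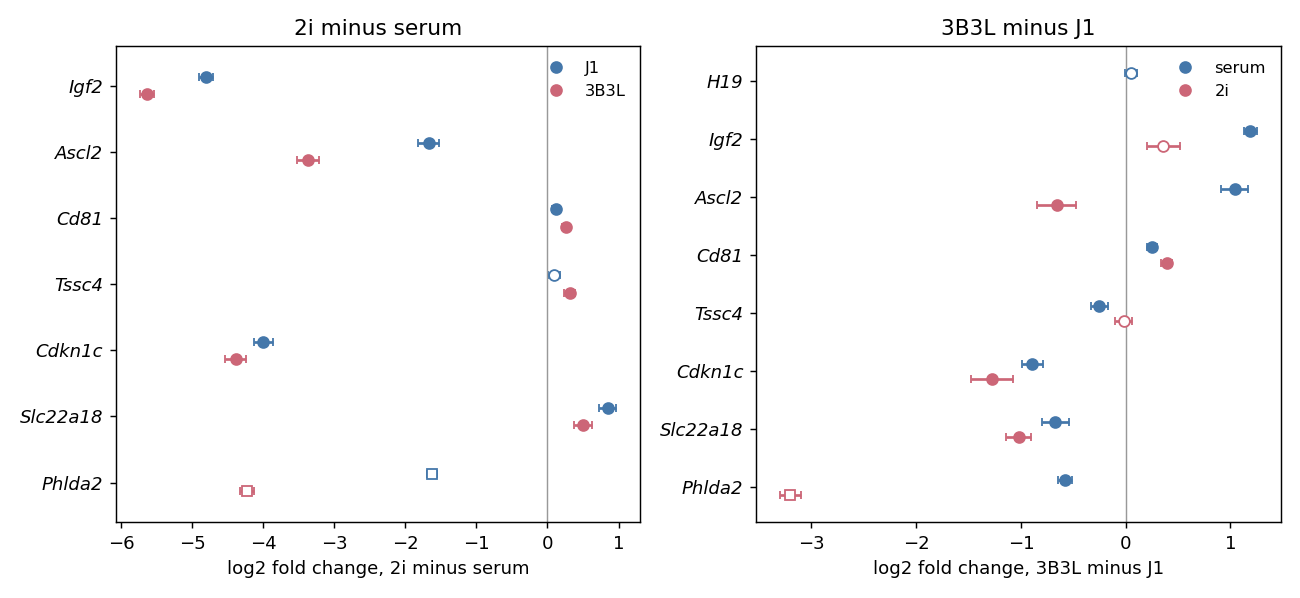
Log2 fold change (horizontal axis) with its SE for 2i minus serum in J1 and 3B3L on the left, and for 3B3L minus J1 in serum and 2i on the right. Filled points were called and open points were not. H19 is left out of contrasts with 2i, Phlda2 is an open square in them because it has no test, and Ascl2 lies at 1.04 in serum and -0.66 in 2i in the right panel.

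Along the chromosome, the sign of the line difference in serum changed once among the called cluster genes, between the neighbours Cd81 and Tssc4, and the call of Tssc4 was lost without any of 4 libraries (above). Counting from the midpoint of H19, Igf2 at 82.0 kb, Ascl2 at 391.2 kb and Cd81 at 483.5 kb were higher in 3B3L, while Tssc4 at 492.9 kb, Cdkn1c at 882.9 kb, Slc22a18 at 909.7 kb and Phlda2 at 925.5 kb were lower. In 2i Cd81 remained higher and Cdkn1c and Slc22a18 lower, Igf2 and Tssc4 were not called, and Ascl2 was lower. Phlda2 was also lower there, a value that took part in the choice of the genes and has no test. Only some of the other genes around the clusters followed this order. Igf2as, at 88.2 kb, was higher in 3B3L in serum like Igf2. Mrpl23, a mitochondrial ribosomal protein gene at -40.2 kb, had a log2 difference between lines of -0.42 ± 0.11 (edgeR adjusted p = 0.00517) with serum and -0.41 ± 0.11 (0.00587) with 2i, lower in 3B3L. Nap1l4, at 954.9 kb the nearest listed gene beyond Phlda2 and named for its position after its values were seen, was lower in 3B3L by -0.24 ± 0.04 in serum (edgeR adjusted p = 0.000269) and did not pass in 2i (-0.07 ± 0.04, 0.157). Cars, at 1001.8 kb and named on the same ground, was higher in both media, by 0.26 ± 0.05 (edgeR adjusted p = 0.000799) and 0.29 ± 0.05 (0.000192). Farther out, Tnfrsf22 and Nadsyn1 were higher and Dhcr7 lower in 3B3L in serum (0.32, 0.23 and -0.26, all called by edgeR), of which Tnfrsf22 and Dhcr7 were named after their values were seen.

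**Figure D4:**
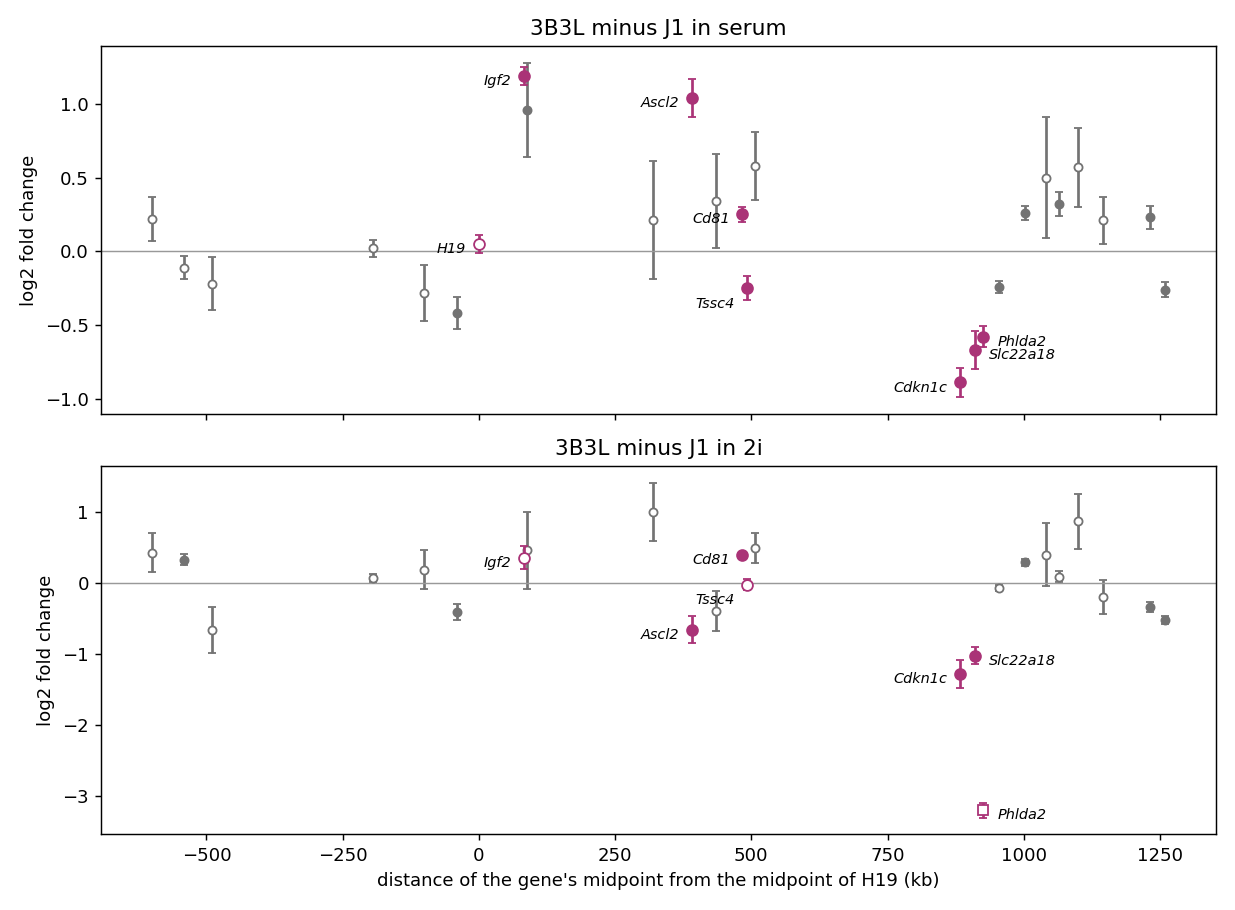
Log2 fold change of 3B3L minus J1 with its SE in serum (top) and 2i (bottom) against the distance of each gene's midpoint from that of H19 in kb. Large named points are the imprinted cluster genes and small grey points tested neighbours, filled where called and open where not, and Phlda2 in 2i is an open square because it has no test. H19 is not drawn in the 2i panel, where its libraries are at or near the floor. Of the tested genes drawn there, Cdkn1c at 882.9 kb and Slc22a18 at 909.7 kb have the lowest values, -1.28 and -1.02. The value of Phlda2 at 925.5 kb, -3.20, took part in the choice of the genes.

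A list of 25 neighbouring genes on distal chromosome 7 had 18 members tested. In J1 6 of these rose and 8 fell in 2i (median log2 change -0.35), from Brsk2, a brain-enriched kinase (-3.35 ± 0.21), to Nadsyn1, the final enzyme of NAD synthesis (1.13 ± 0.08). In 3B3L 3 rose and 7 fell (median 0.01), with the same genes at the ends (Brsk2 -3.14 ± 0.20, Nadsyn1 0.56 ± 0.08). Between lines 4 were higher and 3 lower in 3B3L in serum (median 0.22, from Mrpl23 at -0.42 ± 0.11 to Igf2as), and 2 were higher and 3 lower in 2i (median 0.14). The 2i effect differed for 4, 2 in each direction. Of all genes, 66.1% were called between media in J1 and 65.4% in 3B3L. Between lines 38.7% were called in serum and 45.9% in 2i, and 34.7% for the difference of the 2i effects. The counts are thus not read as a result about the list. Ins2, next to Igf2 and expressed in pancreatic beta cells, had 0 reads in every library.

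The IGF axis, the receptors, binding proteins and adaptors through which Igf2 acts, had more members lower than higher in 2i. Of 15 tested members of 16, 2 rose and 11 fell in 2i in J1 (median log2 change -0.52), and 1 rose and 12 fell in 3B3L (median -1.16), where 32.9% and 32.7% of all genes fell and the median of all genes was 0.01. Igfbp3, a secreted binding protein of IGFs, fell from 32.9 ± 0.86 to 5.51 ± 0.533 CPM in J1 (log2 change -2.58 ± 0.08, edgeR adjusted p = 1.17e-13) and from 68.2 ± 2.76 to 3.47 ± 0.351 in 3B3L (-4.30 ± 0.08, 9.65e-16). Igf2bp3, which encodes an RNA-binding protein of Igf2 mRNA, rose in both lines, by 1.62 ± 0.05 (edgeR adjusted p = 1.63e-13) and 0.80 ± 0.05 (4.78e-10). Igfbp6 had the lowest fitted value in J1 and was at 0.473 ± 0.156 CPM in serum and 0.0158 ± 0.0137 in 2i, under the floor.

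In serum 8 of the 15 were higher in 3B3L and 7 did not pass (median 0.27), against 21.5% of all genes higher (median 0.03). Among them were Igfbp3 (1.05 ± 0.06, edgeR adjusted p = 1.18e-08) and Igf2r, the receptor that clears IGF2 and is itself imprinted, at 153.7 ± 17.3 CPM in J1 and 180.8 ± 9.64 in 3B3L (0.23 ± 0.08, 0.0225). In 2i 3 were higher and 8 lower in 3B3L (median -0.39), from Igfbp4 at -1.58 ± 0.13 to Igfbp6, against 23.0% and 22.9% of all genes. The 2i effect differed for 10 of the 15, 1 higher and 9 lower in 3B3L (median -0.49, against -0.03 over all genes, of which 34.7% were called), with Igfbp4 at -2.17 ± 0.18 and Igfbp3 at -1.72 ± 0.11.

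Genes of the imprint maintenance list, which also holds methylcytosine oxidases and Ctcf, moved in both directions. Of 14 tested genes, 5 rose and 7 fell in 2i in J1 (median -0.23) and 6 rose and 5 fell in 3B3L (median 0.02). Uhrf1, which brings the maintenance methyltransferase to replicated DNA, rose by 1.09 ± 0.05 in J1 (edgeR adjusted p = 8.36e-12), and the lowest value in J1 was that of Dnmt3b (-3.23 ± 0.06). In 3B3L the ends were Tet2, a methylcytosine oxidase (1.03), and Dppa3, which protects maternal methylation in the early embryo (-3.22). Ctcf, the factor that binds the unmethylated H19-Igf2 control region, stood at 189.5 ± 2.92 CPM in J1 serum, 189.7 ± 1.43 in J1 2i, 140.3 ± 4.65 in 3B3L serum and 174.6 ± 2.62 in 3B3L 2i. Zfp57, which binds methylated control regions, rose in 2i to 327.9 ± 9.15 CPM from 177.3 ± 6.78 in J1, and to 409.8 ± 14.6 from 208.8 ± 13.2 in 3B3L. Between lines 8 were higher and 2 lower in 3B3L in serum and 7 and 3 in 2i, with Dnmt3a lowest in both (-2.37 and -3.15) and Dnmt3b highest in 2i (4.40). The 2i effect differed for 6, 4 higher and 2 lower in 3B3L. Dnmt3a, Dnmt3b and Dnmt3l are in all of these line counts. They were knocked out or expressed from transgenes in making 3B3L, so their line differences reflect how the line was built. Beside these counts, 66.1% of all genes were called between media in J1 and 65.4% in 3B3L. Between lines the shares were 38.7% in serum and 45.9% in 2i, and 34.7% for the difference of the 2i effects.

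Relatives of the cluster genes gave 10 tested of 13. In 2i 3 rose and 6 fell in J1 (median -0.41), and 4 rose and 5 fell in 3B3L (median -0.90). Between lines 3 were higher and 2 lower in 3B3L in either medium, and the 2i effect differed for 6, 2 higher and 4 lower. Shares of all genes called were 66.1% between media in J1 and 65.4% in 3B3L. They were 38.7% between lines in serum, 45.9% in 2i and 34.7% for the difference of the 2i effects.

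Bulk RNA does not tell fewer cells of a type from less RNA in each cell, and several of these genes are expressed in other cell types than mESCs. The summed level of 12 fibroblast markers, a sign of feeder cells or of mesenchymal differentiation, was 65.8 to 71.0 CPM in J1 serum, 30.3 to 31.2 in J1 2i, 85.4 to 98.2 in 3B3L serum and 19.9 to 20.4 in 3B3L 2i. Pdgfrb, a receptor of pericytes and fibroblasts named after its values were seen, went the other way in J1, from 6.31 ± 0.855 to 19.4 ± 0.896 CPM. The other 11 summed to 60.4 to 64.6 CPM in J1 serum, 10.3 to 12.2 in J1 2i, 77.9 to 91.8 in 3B3L serum and 12.6 to 13.0 in 3B3L 2i. J1 cells in serum grew on feeders, depleted before collection, and 3B3L cells on gelatin, so line and surface cannot be told apart. In serum the sum was higher in 3B3L than in J1. Igf2 was also higher in 3B3L in serum (log2 difference 1.19), H19 did not pass the test (0.05) and Cdkn1c was lower (-0.89). Of the 8 tested fibroblast markers 7 fell and 1 rose in 2i in J1, 7 fell in 3B3L, and 5 were higher in 3B3L in serum, where 3 did not pass. Of all genes 32.9% and 32.7% fell in 2i in J1 and 3B3L, and 21.5% were higher in 3B3L in serum. Lum was at 0 in J1 serum, and Dcn and Lum at 0 in both 2i groups. The part of these cells in the values of H19, Igf2 and Cdkn1c was not tested.

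Trophoblast markers, of interest because Ascl2 and Phlda2 are placental genes, summed to 172.8 to 185 CPM in J1 serum, 205.2 to 234.3 in J1 2i, 265.6 to 319.8 in 3B3L serum and 209.2 to 218.1 in 3B3L 2i. Most of this was Krt8, Krt18 and Tfap2c, named after their values were seen, and the defining placental genes Tpbpa and Prl3d1 had 0 reads in every library. Of 13 tested, 4 rose and 6 fell in 2i in J1, 4 rose and 7 fell in 3B3L, 7 were higher and 1 lower in 3B3L in serum, and 1 was higher and 4 lower in 2i. Extraembryonic endoderm markers summed to 9.84 to 10.5 CPM in J1 serum, 5.97 to 6.83 in J1 2i, 17.0 to 18.0 in 3B3L serum and 7.48 to 8.10 in 3B3L 2i, with Ttr at 0 in every group, and of 8 tested 2 rose and 3 fell in 2i in J1, 6 fell in 3B3L, and 6 were higher in 3B3L in serum. Mesoderm markers, led by T in 2i, summed to 6.22 to 6.88, 16.7 to 19.5, 5.79 to 6.55 and 12.1 to 13.5 CPM in the same order, and of 7 tested 3 rose and 1 fell in 2i in J1, 3 rose and 2 fell in 3B3L, and 2 were higher and 1 lower in 3B3L in serum. For these 3 lists the shares of all genes called were 66.1% between media in J1 and 65.4% in 3B3L. Between lines they were 38.7% in serum and 45.9% in 2i. The part of any of these cell types in the values above was not tested.

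The genes whose pattern over the 12 libraries was most like that of H19, among 11555 genes reaching 5 CPM in a group, were Rgs16, a regulator of G protein signalling (Pearson r of log2 CPM 0.9991), Timp3, an inhibitor of metalloproteinases (0.999), and Dpysl3, a neuronal cytoskeletal regulator (0.9981). Rgs16 stood at 5.07 ± 0.244 CPM in J1 serum and 5.02 ± 0.0531 in 3B3L serum, and at 0.195 ± 0.035 and 0.0962 ± 0.0372 in 2i. Those most like Phlda2 were Evc2, a component of hedgehog signalling at the cilium (0.9965), Slc38a4, an amino acid transporter and itself an imprinted gene on another chromosome (0.993), and Uchl1, a ubiquitin hydrolase (0.9926). Slc38a4 stood at 192 ± 3.97 CPM in J1 serum, 106.5 ± 7.44 in J1 2i, 177.5 ± 11.8 in 3B3L serum and 32.5 ± 0.87 in 3B3L 2i. The 12 points fall into 4 groups of 3, and such values are a description of levels over groups that share medium and line.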

How the data were processed

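The 12 libraries were made from poly(A) RNA of mESCs, 3 for each of 2 lines in 2 media, and the sample labels give the groups and replicate numbers. The authors used a stranded protocol and quantified transcripts with Sailfish, in its mode for stranded reads, against mm10 transcript models, named as RefSeq in the methods, while the identifiers are those of Ensembl. With tximport they made the deposited table of estimated counts per gene, not scaled by depth or length. They also deposited TPM, effective lengths and estimated counts per transcript for each library. Sequencing pools are not assigned to libraries in the labels.

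Estimated counts were rounded. In edgeR (version 4.0.16, R 4.3.3), filterByExpr left 17885 genes and TMM factors ranged from 0.97 to 1.038. The quasi-likelihood fit used all 12 libraries with group means as coefficients (biological coefficient of variation 6.49%) and gave 5 contrasts, each adjusted over all genes. It was tested on simulated data. Standard errors are given for log2 fold changes, and CPM values are means ± SD (n = 3). RPKM used the mean effective length of a gene in each library. Transcripts that held 5% or more of a gene in a group, with at least 10 reads of the gene in every library, were compared by exact permutation.

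The members, gene lists (distal chromosome 7 neighbours, IGF axis, imprint maintenance, relatives of the members) and markers (pluripotent, fibroblast, trophoblast, extraembryonic endoderm, mesoderm) were chosen with earlier results of these data known. Named genes are the members, list members with the highest or lowest log2 fold change and the 3 genes most like H19 or Phlda2. Of the genes to which this rule applies, 1 list member is not reported here. Any other list member or marker that is named was chosen after its values were seen. Coordinates and sequences are from RefSeq on GRCm38.p6, matched by symbol. Alternatives were size factors or the Wald test of DESeq2 (version 1.42.0), no filter, length offsets, a fit to the 6 libraries of a contrast alone, a block for the replicate number, a 2-fold threshold and leaving out each library.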

Additional observations from a re-analysis of the deposited data

Results flagged for a closer look

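The 2i effect differed between the lines by a test of the difference itself for Igf2 and for Ascl2. For Igf2 the log2 change in 2i was lower in 3B3L than in J1 by -0.83 ± 0.18 (edgeR adjusted p = 0.00207, Benjamini-Hochberg). It ranged from -0.98 to -0.54 over the alternatives and no longer passed with length offsets. For Ascl2 the difference was -1.7 ± 0.23 (edgeR adjusted p = 4.05e-05), and it ranged from -1.80 to -1.49 and passed under every alternative run. In both genes the 3B3L libraries were higher than the J1 libraries in serum, so that the difference includes the line difference there (1.19 for Igf2 and 1.04 for Ascl2).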

How the results depend on the processing

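Of 570 log2 fold changes of members recomputed under an alternative, 549 kept their direction and their side of the threshold, 14 lost the call, 5 gained it and 2 reversed. The reversals were the changes of Tssc4 between media in J1 and between lines in 2i, neither of them called, without J1 2i replicate 3 (-0.01 and 0.07). Leaving out a library moved these from -0.01 to 0.16 and from -0.09 to 0.07. H19 and Phlda2 are counted only between lines in serum. With a 2-fold threshold the number of members called was 3 between media in each line, 2 between lines in 2i, 2 between lines in serum and 1 for the difference of the 2i effects, since small changes are left out by construction. That difference had 1 member called with length offsets, and 2 to 5 when a library was left out, where leaving out J1 2i replicate 3 gave 5. Leaving out a library gave 4 to 5 members called between media in J1, 6 to 7 in 3B3L, 4 to 5 between lines in 2i and 6 to 7 between lines in serum, where Kcnq1 passing the filter gave the 7 in 3B3L between media and the 5 in 2i. Kcnq1 was also among the 4 called in 2i without J1 2i replicate 3 (-4.02 ± 0.70, edgeR adjusted p = 0.000276). Ascl2 lost its call there (-0.45, 0.0702), so fewer than 4 were called without Kcnq1. Kcnq1 passed only through J1 2i, where its reads were highest, so its calls here, also that in the difference, are no support. Replicate numbers did not pair the samples (correlations of same-numbered deviations -0.118 to 0.0167), and with a replicate block the number called was 4, 6, 4, 7 and 2 in the order of the contrasts above with the difference last, where Cd81 in J1 (0.12, edgeR adjusted p = 0.0571) lost its call. The cause of these changes was not tested. Depth limits H19 and Kcnq1 in 2i, and transcript shares of Igf2 there.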
